A study of Mus musculus with 44 samples.

Results

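Lungs of mice that received tumour cells and recombinant human TIMP2 (rTIMP2) were compared with lungs of mice that received the same cells and HBSS, the vehicle, across all genes, with genotype as an additive term, so that the fold change is the one common to both genotypes. Of the 44 lung samples of the study, the 20 from tumour-bearing mice of the intratracheal model entered the comparison by their titles: wild-type mice given rTIMP2 (WT + T2), mice with mutant Timp2 given rTIMP2 (MT2 + T2), wild-type mice given HBSS (WT HBSS) and mutant mice given HBSS (MT2 HBSS), with n = 5 in each group. All were labelled C57BL6j. Every one of these 20 mice had 1 M LL/2-Luc2 cells, a luciferase-tagged Lewis lung carcinoma line, placed into the trachea in 50 µL. rTIMP2 was given intraperitoneally at a daily dose of 200 µg per kg. The same table holds 10 tumour-free lungs, 5 WT and 5 MT2, which are given for orientation and entered no test. The labels used here state neither the age nor the sex of these mice, nor the day on which their rTIMP2 began. They also do not state the exact lesion of the mutant allele, which the series title calls a loss of function. RNA came from a small piece of lung, so each library mixes host tissue with whatever tumour the piece held.

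TIMP2 is secreted and blocks matrix metalloproteinases. It also takes part in the activation of Mmp2 by the membrane protease Mmp14, and it binds an integrin on endothelial cells. Lewis lung carcinoma grows as nodules that replace alveoli and airways, so a lung piece with much tumour has less RNA of epithelium, vessels and resident immune cells. Metallothioneins, which lead the results, are small cysteine-rich proteins that bind zinc and copper. Their genes respond to metal through the factor Mtf1, and also to glucocorticoids and inflammatory signals.

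Values are the authors' normalized counts, 1 per gene and library, and fold changes are on the scale of log2(value + 1). The 20 libraries held an estimated 10.7 to 17.1 M reads (median 12.8), so a value near 1 stands for about 1 read. Timp2, the mutated gene and the mouse counterpart of the drug, was at 10119, 9998, 8046, 5809 and 9685 in WT + T2 lungs (replicates 1 to 5, the order used throughout), against 6770.3, 6541, 5753, 7781 and 7656 in WT HBSS lungs. MT2 + T2 lungs had 7695, 5487, 6338, 9597 and 5979, against 8697, 10259.8, 11992, 6582 and 6512 in MT2 HBSS lungs. The treated and vehicle ranges overlapped, and so did those of the genotypes in these tumour-bearing lungs, whereas the tumour-free lungs had 5948 to 6237 in MT2 and 10147 to 11489 in WT. The genotype-adjusted difference of Timp2 was 0.0014 on the log2 scale (exact permutation within genotype, two-sided p = 0.993). The values cover the whole gene and include the injected cells' own Timp2, so they say nothing of the protein made or of the part of the transcript that the mutation affects.

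A group of 4 treated libraries stood apart. The reporter Luc2, which only the injected cells carry, was at 23.3, 0, 0, 67.7 and 0 in WT + T2 lungs and at 75.5, 0.983, 50.9, 37.9 and 55.3 in MT2 + T2 lungs. HBSS lungs had 39.3 to 69.2 in WT and 47.6 to 70.9 in MT2, and all 10 tumour-free lungs were at 0. WT + T2 replicates 2, 3 and 5 and MT2 + T2 replicate 2 thus fell below 1 and below all 10 HBSS lungs, while the other 6 treated lungs reached 23.3 to 75.5. The difference was -2.32 (exact permutation within genotype, two-sided p = 0.0138, adjusted over 3 values p = 0.0207). Without these 4 libraries it was -0.24. They are set apart by their Luc2 value itself, so this smaller difference follows from the choice and is no test of rTIMP2. The transcript of Hmga2, an architectural DNA-binding protein that most adult tissue does not make, differed by -2.98 (exact permutation p = 0.00746, adjusted p = 0.0207), and by -0.49 without them. Hmga2 was at 13.6 to 63.9 in the 4 and at 1198 to 5299.5 in the other 6 treated lungs, so the choice by Luc2 moves its difference too.

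The same 4 libraries differed in other measures that the labels do not explain. Xist, the noncoding RNA that coats an inactive X, was at 42.2, 92.4 and 54.5 in WT + T2 replicates 2, 3 and 5 and at 119 in MT2 + T2 replicate 2, against 1153 to 8305 in the other 16 tumour-bearing lungs. The Y-linked gene Ddx3y was at 1024, 1067 and 1321 in those WT + T2 replicates and at 1265 in the MT2 + T2 one, against 123 to 686 in the other 16, which had both transcripts. Scgb1a1, the main secretory protein of club cells in the airway, was at 351691, 232431, 341128 and 316621 in the 4, against 21967 to 191399 in the other 6 treated lungs and 3313 to 146956 in HBSS lungs. WT + T2 replicates 2 and 3 also carried keratin 13 (Krt13, squamous epithelium) at 37274 and 114425 and the skeletal actin gene Acta1 at 13217 and 77473, as did WT HBSS replicates 1 and 4 with Krt13 at 22601 and 9776, whereas Krt13 stayed at 2.91 to 613 in the other 16 lungs. Over all 20 libraries all 5 genes of the sex chromosome list were called for rTIMP2 at a limma adjusted p under 0.05. Xist was lower (log2 -2.77) and the Y-linked genes Ddx3y, Eif2s3y, Kdm5d and Uty were higher. Without the 4 libraries none of the 5 was called, and 3 had an unadjusted p under 0.05. The part of sex, of neighbouring tissue or of the piece of lung sampled in the results was not tested. Counts over all genes, gene lists and leading genes are therefore given over all 20 libraries and again over the 16 that remain without those 4. The choice of the 4 rests on a measured value, so the second number describes how far a result leans on them.

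**Figure D1:**
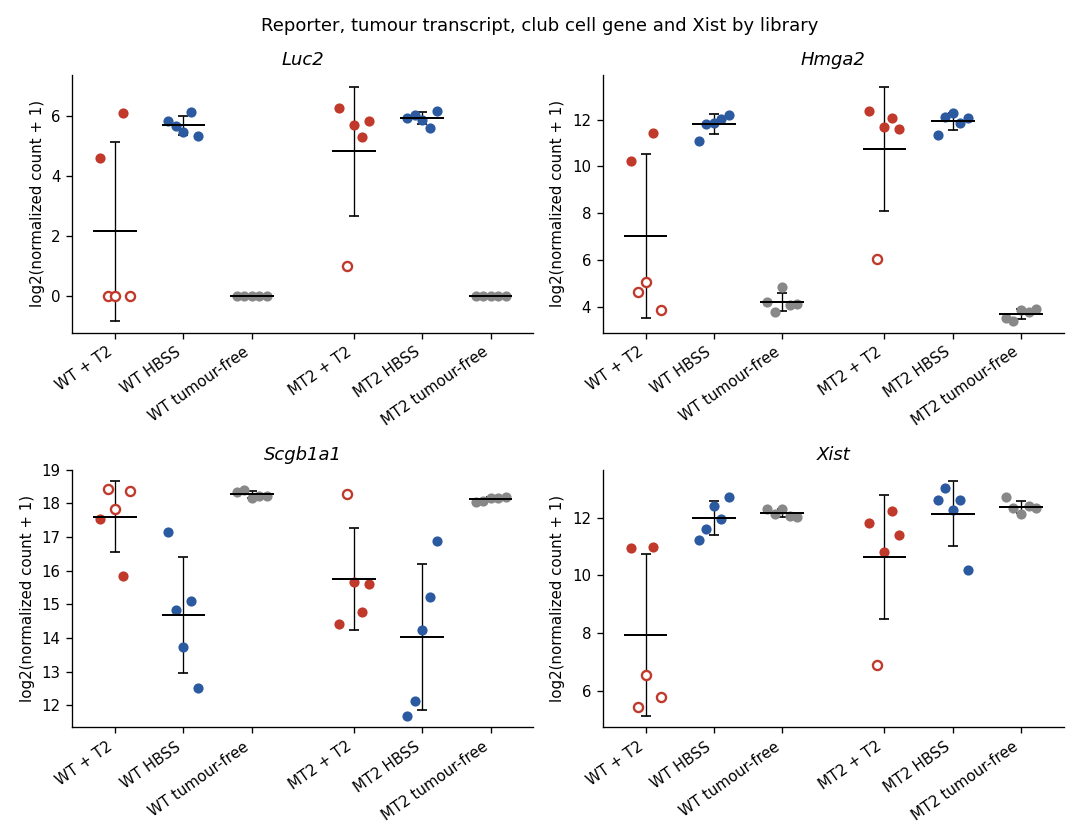
Luc2, Hmga2, Scgb1a1 and Xist by library, as log2(normalized count + 1) on the y axis, for WT and MT2 groups on the x axis. Red points are rTIMP2 lungs (open where Luc2 was under 1), blue points HBSS lungs and grey points tumour-free lungs, and bars give the mean ± SD over n = 5. The 4 open points sit at or near the tumour-free level of Luc2, near it in Hmga2 and Scgb1a1, and far below every other lung in Xist.

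Over all 20 libraries rTIMP2 was followed by broad differences. Of 16379 genes tested, limma called 4673 (28.5%) at an adjusted p under 0.05, of which 2834 (17.3%) were higher and 1839 (11.2%) lower with rTIMP2. Many lung epithelium, vessel and lymphocyte genes were on the higher side, and tumour cell genes on the lower side. In bulk tissue a lower number of cells of a type and less RNA per cell cannot be told apart. Without the 4 libraries limma called 3 genes (0.0183%), with 1 of them higher (0.00611%) and 2 lower (0.0122%). At an unadjusted p under 0.05 there were 2706. All 4673 genes kept their sign in those 16 libraries, which are a subset of the 20, and their median absolute log2 fold change was 0.58 there, against 1.03 over all 20. The count over 20 libraries was 2580, 3102 and 2581 without WT + T2 replicates 2, 3 and 5, 2545 without MT2 + T2 replicate 2, 2508 and 2233 without WT HBSS replicates 3 and 5 and 2968 without MT2 HBSS replicate 1. Quantile normalization called 2181 higher and 2328 lower, so the excess of higher calls depends on the scaling.

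The 3 genes called with and without those libraries were the metallothionein genes Mt1 and Mt2, which were lower, and Itgae, which was higher. The same 3 were the only genes of 16379 (0.0183%) whose 10 treated and 10 HBSS values did not overlap, 1 higher (0.00611%) and 2 lower (0.0122%). Without the 4 libraries 7 genes (0.0427%) did not overlap, 2 higher (0.0122%) and 5 lower (0.0305%), the 3 and also Las1l, Acat3, Gm12818 and Klhl33. Mt1 and Mt2 are neighbours on chromosome 8, at 94179082 to 94180328 and 94172664 to 94173569 on the plus strand (mm10, positions as deposited). The gene Mt2 is not related to the label MT2, which stands for the Timp2 mutant.

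Mt1 was at 584, 752, 1182, 1199.7 and 507 in WT + T2 lungs, against 2635, 2194, 3363, 2128 and 3420.1 in WT HBSS lungs. In the mutant it was at 1570.4, 754, 1471, 1340.4 and 1458 in MT2 + T2 lungs, against 3296, 3439, 6014, 4516 and 3539 in MT2 HBSS lungs. Every treated lung lay below every vehicle lung, and every one lay above the tumour-free lungs, which had 280 to 483. Mt1 averaged 1082 ± 397 in treated and 3454 ± 1142 in HBSS lungs (SD, n = 10 each), which is -1.71 ± 0.18 on the log2 scale (± SE here and from here on, limma adjusted p = 0.000166). Within MT2 lungs the value was -1.66, within WT lungs -1.76, and without the 4 libraries -1.56 ± 0.18 (limma adjusted p = 0.00184). The limma adjusted p was at most 0.00067 when any 1 library was left out, and its highest value over the alternatives was 0.192, in a fit of the 10 MT2 lungs alone, which called no gene.

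Mt2 followed the same order with a wider span. It was at 216, 261, 679, 618 and 144 in WT + T2 lungs, against 1781, 1386, 2185, 1074 and 2653 in WT HBSS lungs. Mutant treated lungs (MT2 + T2) had 947, 278, 764, 738 and 696, against 2762, 2683, 5003, 3537 and 1669.9 in MT2 HBSS lungs. The highest treated lung (947) stayed under the lowest HBSS lung (1074), and tumour-free lungs were at 53.3 to 90.2. The log2 fold change was -2.32 ± 0.29 (limma adjusted p = 0.000696) and -2.04 ± 0.26 without the 4 libraries (limma adjusted p = 0.00382). Over the alternatives the adjusted p of Mt2 was at most 0.00258 with any 1 library left out and 0.192 at its highest, again in MT2 lungs alone. A gene model on the opposite strand, Gm45774 (mean 63.9), overlaps Mt2, and the strand of counting is not given in the sources used here.

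The starts of these genes are shown because they fell together and are known metal-responsive promoters. Each window runs from 250 bases before to 50 bases after the RefSeq start (GRCm38.p6, plus strand, 5′ to 3′). The RefSeq start differs from the deposited gene start given above. Capitals mark matches to TGCGCNC or TGCACNC, the core of the metal response element, searched on both strands.
Mt1, chr8:94178839-94179138: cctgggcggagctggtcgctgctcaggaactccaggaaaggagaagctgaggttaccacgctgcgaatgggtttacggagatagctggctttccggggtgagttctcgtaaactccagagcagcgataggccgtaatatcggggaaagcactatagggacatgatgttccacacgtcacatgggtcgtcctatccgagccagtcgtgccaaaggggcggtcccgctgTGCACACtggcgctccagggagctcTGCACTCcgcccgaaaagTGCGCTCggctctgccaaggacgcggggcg
Mt2, chr8:94172368-94172667: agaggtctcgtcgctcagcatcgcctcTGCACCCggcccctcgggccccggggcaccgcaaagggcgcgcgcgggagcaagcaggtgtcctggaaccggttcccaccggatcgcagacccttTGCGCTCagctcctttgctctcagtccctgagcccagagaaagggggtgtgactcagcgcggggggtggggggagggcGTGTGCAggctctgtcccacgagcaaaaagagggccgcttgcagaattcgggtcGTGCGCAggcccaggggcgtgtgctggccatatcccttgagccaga
The Mt1 window holds 3 matches and the Mt2 window 4. From the RefSeq start, the Mt1 matches lie at -23, 2 and 20, and the Mt2 matches at -223, -128, -50 and 4. Not all of them are thus upstream of it. Of 32851 RefSeq windows of 300 bases, 25.7% hold 1 match or more, 1.97% hold at least 3 and 0.517% at least 4. These matches describe the letters and are not evidence of binding.

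**Figure D2:**
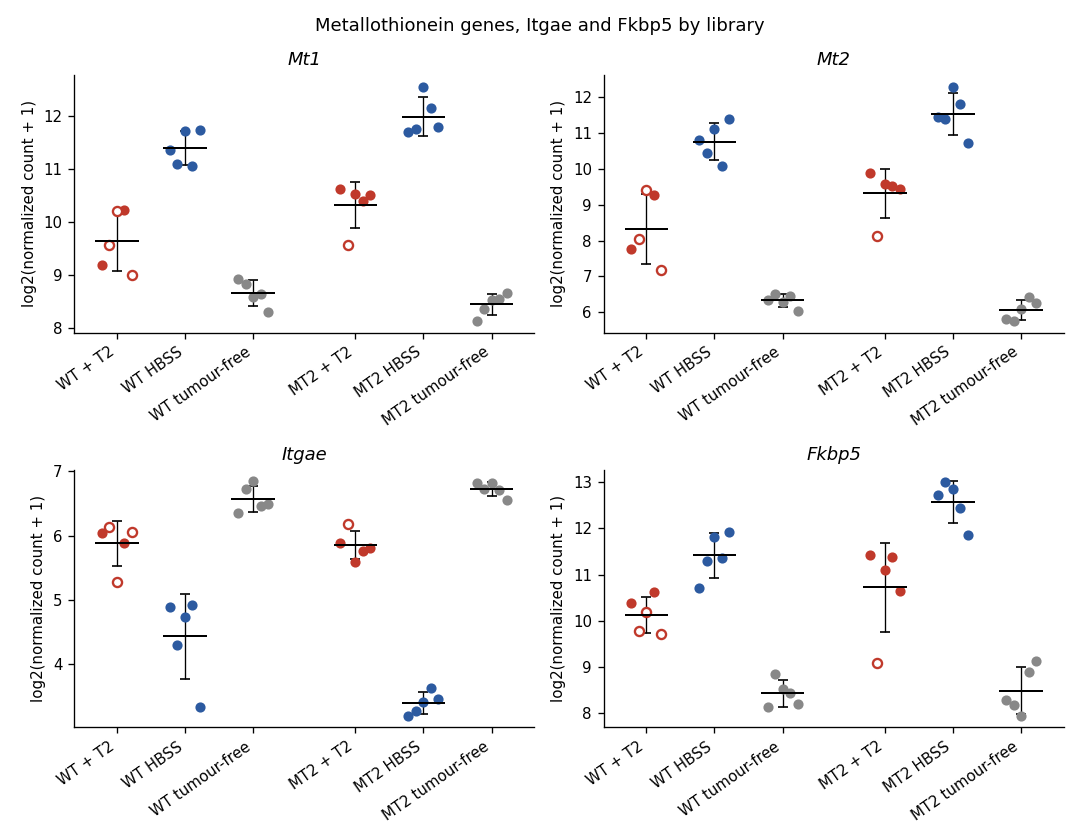
Mt1, Mt2, Itgae and Fkbp5 by library, as log2(normalized count + 1) on the y axis, for WT and MT2 groups on the x axis. Colours and bars are as for the plot of Luc2, with open points for the 4 treated lungs under 1 in Luc2. For Mt1 and Mt2 all red points lie below all blue ones and above all grey ones, and for Itgae the order is the reverse.

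The other genes of zinc handling looked at, Mtf1, Slc30a1 and Slc39a10, did not share this pattern. They were chosen after values were seen and do not stand for all such genes. The part of zinc or of Mtf1 in the metallothionein values was not tested. Mtf1, the factor that binds metal response elements, had a median of 421 in treated lungs (highest 557), against 304 in HBSS lungs (highest 407), and rose by 0.40 ± 0.13 on the log2 scale (limma adjusted p = 0.032). This call was lost without the 4 libraries (log2 0.25, adjusted p = 0.394), and the adjusted p of Mtf1 ran from 0.00937 to 0.0658 with single libraries left out (lost for WT + T2 replicates 1, 2, 3 and 5, MT2 + T2 replicate 2 and WT HBSS replicates 2, 3 and 5), with a highest value of 0.553 over the other alternatives. The zinc exporter gene Slc30a1, a known target of Mtf1, had 100.0 to 1351 in treated and 118 to 639 in HBSS lungs (log2 1.14 ± 0.43, limma adjusted p = 0.0504), and the 4 treated lungs without reporter were among its 5 highest. Its log2 value was 0.35 in the 16 libraries. The zinc importer gene Slc39a10 had a log2 value of -0.22 ± 0.23 (limma adjusted p = 0.475), and 0.31 in the 16 libraries. The other 2 metallothionein genes, Mt3 and Mt4, did not reach the level needed for a test. Mt4, a gene of squamous epithelium, reached 536 and 1872 in WT + T2 replicates 2 and 3 and 558 and 172 in WT HBSS replicates 1 and 4, the lungs with much Krt13, and at most 17.1 elsewhere.

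Itgae encodes the integrin alpha E chain, by which tissue-resident T cells and a cross-presenting type of dendritic cell bind E-cadherin on epithelium. It was at 64.9, 69.6, 37.8, 57.9 and 65.8 in WT + T2 lungs, against 28.7, 18.6, 25.5, 29.3 and 9.08 in WT HBSS lungs. In MT2 + T2 lungs the values were 57.9, 71.8, 47.1, 53.4 and 55.3, against 8.17, 8.60, 9.66, 11.4 and 10.0 in MT2 HBSS lungs. All 10 treated lungs were above all 10 HBSS lungs, and below all tumour-free lungs, which had 80.9 to 114. The 4 treated lungs without reporter did not stand apart here, since their values (69.6, 37.8, 65.8 and 71.8) lay on both sides of the other treated ones. The log2 fold change was 1.95 ± 0.23 (limma adjusted p = 0.000444), and 2.04 ± 0.27 without the 4 libraries (limma adjusted p = 0.00392). The adjusted p of Itgae was at most 0.00174 with any 1 library left out and 0.0635 in MT2 lungs alone, the highest of its alternatives. By genotype the log2 values were 2.45 in MT2 and 1.45 in WT lungs (interaction unadjusted p = 0.027, limma adjusted p = 0.654). The gene lies on chromosome 11 at 73090583 to 73147447 (mm10), where Haspin, a mitotic kinase gene, overlaps it on the opposite strand. Haspin had a log2 value of -0.67 ± 0.38 (limma adjusted p = 0.175).

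A limma fit with the Hmga2 level of each library as a covariate, added after the data were seen, called 4 genes. These were Itgae (log2 2.03 ± 0.28, adjusted p = 0.00423), Mt1 (-1.47 ± 0.20, adjusted p = 0.00423), Mt2 (-1.91 ± 0.31, adjusted p = 0.0334) and the gene model Gm43118 (-4.93 ± 0.83, adjusted p = 0.0334). In this fit Hmga2 stands for the tumour RNA in the piece, which differed between the groups, so its log2 values are conditional on that level.

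Fkbp5, a co-chaperone of the glucocorticoid receptor and a common readout of glucocorticoid action, was lower with rTIMP2 in both genotypes. WT + T2 lungs had 1327, 872, 1159, 1572 and 838, against 1665, 2497, 3570.3, 2634 and 3882 in WT HBSS lungs. With the mutant genotype, MT2 + T2 lungs had 2755, 543, 2179, 2649.6 and 1589.6, against 6728, 8169, 7360.3, 5528 and 3714 in MT2 HBSS lungs. Within each genotype the groups did not overlap, and tumour-free lungs, at 246 to 562, lay below all tumour-bearing lungs except MT2 + T2 replicate 2. The adjusted log2 fold change was -1.57 ± 0.26 (limma adjusted p = 0.00927), and -1.23 ± 0.21 without the 4 libraries (limma adjusted p = 0.075). The adjusted p of Fkbp5 was at most 0.0225 with any 1 library left out and at most 0.311 over the other alternatives. Of 12 genes known to respond to glucocorticoids, a set chosen after values were seen, Fkbp5 was the 1 called and 11 did not pass, where 11.2% of all genes tested were called lower. Among those was Tsc22d3, the leucine zipper gene induced by glucocorticoids, with 0.07 ± 0.32 on the log2 scale (adjusted p = 0.884).

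Fits within each genotype called 27 genes in MT2 lungs (0.165%; 20 higher, 0.122%, and 7 lower, 0.0427%) and 3923 in WT lungs (24%; 2064 higher, 12.6%, and 1859 lower, 11.3%), and 11 genes were called in both, all with the same sign. Without the 4 libraries these fits called 1 gene in MT2 and 0 in WT lungs. The MT2 count was 1 without MT2 + T2 replicate 2 or 5 or MT2 HBSS replicate 1, 2 or 3, 2 without MT2 + T2 replicate 3 and 462 without MT2 HBSS replicate 5, and leaving out WT + T2 replicate 1, 2 or 5 or any WT HBSS replicate, which share the estimate of spread, gave 9 to 67. The WT count was 0 without WT + T2 replicate 1, 2 or 5 or WT HBSS replicate 2, 3, 4 or 5, 2 without WT + T2 replicate 3, 7608 without WT + T2 replicate 4, 6173 without WT HBSS replicate 1 and 6066 without MT2 + T2 replicate 2. Besides Mt1, Mt2, Fkbp5 and Itgae these were Ciita, H2-Ob, Ms4a1, Klrk1, St8sia6, Slc9a7 and Itga10. Ciita, H2-Ob, Ms4a1 and Klrk1 belong to antigen presentation, B cells and cytotoxic lymphocytes.

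Ciita, the master regulator of MHC class II genes, was at 415, 791, 352, 342 and 861 in WT + T2 lungs, against 472, 146, 69.1, 180.2 and 42.4 in WT HBSS lungs. MT2 + T2 lungs had 88.3, 489, 130.0, 144 and 329.6, against 15.3, 12.9, 24.2, 40.0 and 25.0 in MT2 HBSS lungs. The mutant groups did not overlap, while WT HBSS replicate 1 lay among the WT + T2 lungs. Ciita rose by 2.53 ± 0.41 on the log2 scale (limma adjusted p = 0.00927), and tumour-free lungs had 405 to 679. In the 16 libraries it was 2.28 ± 0.45 (limma adjusted p = 0.143), and over the alternatives the adjusted p ran up to 0.192.

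Ms4a1, the B cell surface protein gene also known as Cd20, was at 161, 427, 389, 118 and 399 in WT + T2 lungs, against 187, 49.2, 32.7, 47.2 and 6.05 in WT HBSS lungs. Mutant treated lungs (MT2 + T2) had 51.0, 439, 77.3, 31.1 and 214, against 7.15, 4.30, 0.966, 13.3 and 7.51 in MT2 HBSS lungs. Its log2 fold change was 3.37 ± 0.57 (limma adjusted p = 0.00927) and 2.84 ± 0.63 without the 4 libraries (limma adjusted p = 0.143, up to 0.217 over the alternatives). In each genotype the treated lungs without reporter were the highest, at 389 to 439, and the remaining treated lungs of MT2 still lay above all MT2 HBSS lungs.

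Klrk1, an activating receptor gene of NK and CD8 T cells, was at 43.6, 127, 73.4, 107 and 124 in WT + T2 lungs, against 68.2, 48.1, 25.5, 39.8 and 8.07 in WT HBSS lungs. In MT2 + T2 lungs the values were 38.3, 129, 46.2, 31.1 and 77.8, against 7.15, 3.23, 11.6, 12.4 and 5.84 in MT2 HBSS lungs, with no overlap in the mutant. Klrk1 rose by 2.13 ± 0.39 (limma adjusted p = 0.00927), and its log2 value was 1.95 without the 4 libraries. H2-Ob, a modulator of class II peptide loading in B cells, rose by 2.54 ± 0.44, and the sialyltransferase gene St8sia6 by 2.38 ± 0.36. Slc9a7, a sodium and proton exchanger gene, rose by 2.44 ± 0.36, and Itga10, a collagen-binding integrin chain, fell by 2.38 on the log2 scale. In the 16 libraries the log2 values of H2-Ob, St8sia6, Slc9a7 and Itga10 were 2.17, 1.89, 2.13 and -2.08, and none was called.

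**Figure D3:**
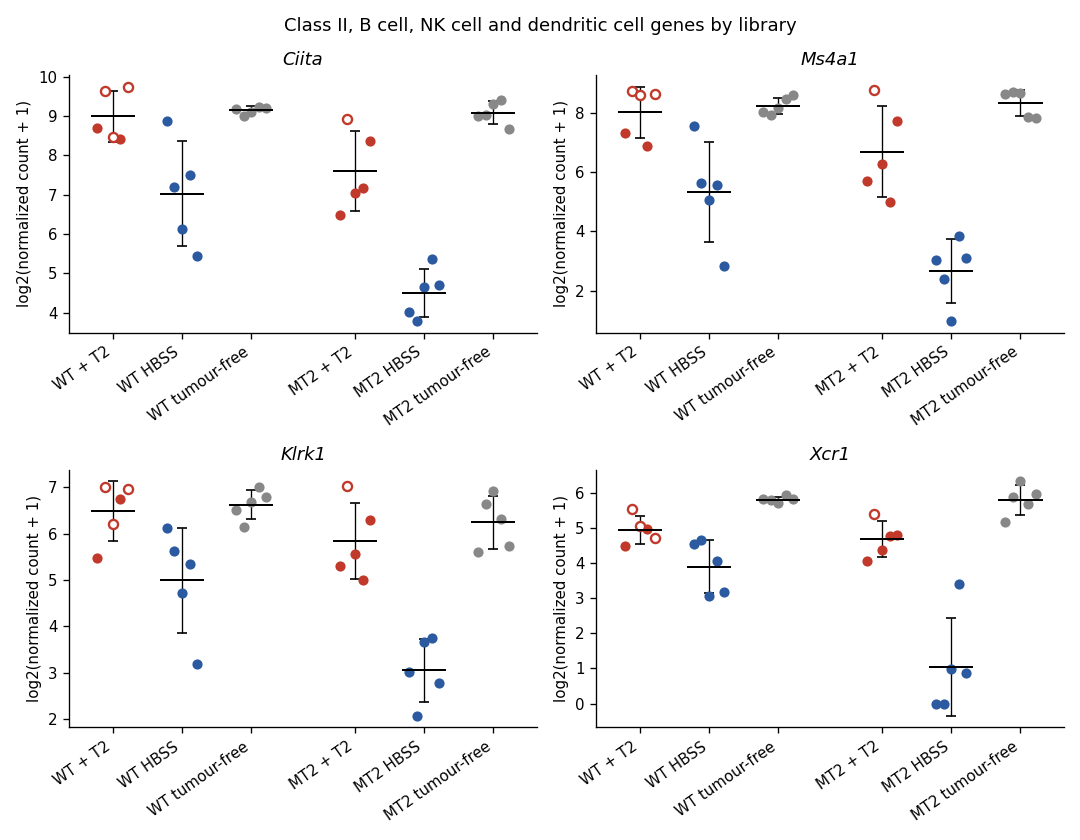
Ciita, Ms4a1, Klrk1 and Xcr1 by library, as log2(normalized count + 1) on the y axis, for WT and MT2 groups on the x axis, with colours and bars as for the plot of Luc2. The gap between red and blue points is wide in MT2 lungs and partly filled in WT lungs. There WT HBSS replicate 1 reaches the treated range in each gene, and WT HBSS replicate 2 does so in Klrk1 and Xcr1.

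The gene lists were written with earlier results of these data known, and they are described by counts and medians. The median log2 fold change of all genes tested was 0.0094, and 0.041 without the 4 libraries. Over 20 libraries 28.5% of all genes tested were called, 17.3% higher and 11.2% lower, and list counts stand beside these shares. Lymphocyte lists moved to the higher side. Of 18 T cell genes 17 rose and 1 did not pass, against 17.3% of all genes tested that were called higher, with a median log2 of 1.47 and of 1.27 without the 4 libraries. Cd3e, a chain of the T cell receptor complex, averaged 53.1 ± 30.3 in treated and 19.7 ± 17.9 in HBSS lungs (SD, n = 10 each, log2 1.61 ± 0.37), and Lck, its proximal kinase, rose by 1.76 ± 0.38. Cd8a (1.49) and Cd4 (1.16) rose as well, while Foxp3, the factor of regulatory T cells, had 0.53 ± 0.42 (limma adjusted p = 0.341). In the 16 libraries none of these 18 genes was called, and 16 of them had an unadjusted p under 0.05.

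Of 8 NK and cytotoxic genes tested, 7 rose (median log2 2.07, and 1.61 without the 4 libraries), among them Gzma (3.12 ± 0.58), the perforin gene Prf1 (2.28) and Nkg7 (2.07), a granule protein gene. The other 6 of the list, Ifng and Fasl among them, were too low to test. Among all genes tested, 17.3% were called higher. Of 16 B cell and plasma cell genes 14 rose (median 2.35, and 1.72 without the 4 libraries), such as the receptor component Cd79a at 366 ± 274 in treated and 73.7 ± 105 in HBSS lungs (log2 2.64 ± 0.51). Ighm, the constant region of immunoglobulin M, had 1.55 ± 0.60 and did not pass (limma adjusted p = 0.0566), nor did Xbp1, a factor of secretory cells (0.25 ± 0.14). The summed level of the T cell list was 545 to 2392 in treated lungs (median 1374), 186 to 1764 in HBSS lungs (median 517) and 1799 to 2479 in tumour-free lungs. Among the treated, the 4 without reporter had 1496 to 2392 and the other 6 had 545 to 1380. Of the 8 genes of thymus and lymph node, listed because lymphoid tissue can lie beside the lung, 2 were tested and the lymphoid chemokine gene Ccl21a rose (1.91 ± 0.53), while the thymocyte gene Dntt stayed at 0 to 5.90 in the 20 libraries. The part of such tissue in the lymphocyte results was not tested.

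Most dendritic cell genes were on the higher side, against 17.3% of all genes tested called higher and 11.2% called lower. Of 14 tested, 9 rose, Itgae among them, 1 fell and 4 did not pass, with a median log2 of 1.31 and of 1.21 without the 4 libraries. Xcr1, a chemokine receptor of cross-presenting dendritic cells, was at 21.3, 45.0, 32.1, 30.2 and 25.1 in WT + T2 lungs, against 22.4, 24.1, 7.28, 15.7 and 8.07 in WT HBSS lungs. With the mutant genotype, MT2 + T2 lungs had 15.7, 41.3, 19.8, 26.2 and 26.6, against 0, 0, 0.966, 9.51 and 0.835 in MT2 HBSS lungs, where the groups did not overlap. Xcr1 rose by 2.34 ± 0.47 (limma adjusted p = 0.00934), with a log2 value of 3.63 in MT2 and 1.05 in WT lungs (interaction unadjusted p = 0.00294, limma adjusted p = 0.654). Siglech, of plasmacytoid dendritic cells, rose by 2.26 ± 0.48, the lectin receptor gene Cd209a by 2.57 ± 0.54 and the chemokine gene Ccl22 by 1.61 ± 0.33. Fscn1, an actin bundling gene of mature dendritic cells that tumour cells also use, fell by 1.74. Without the 4 libraries the log2 values were 2.42 for Xcr1, 2.31 for Siglech, 2.27 for Cd209a, 1.54 for Ccl22 and -0.39 for Fscn1. Clec9a (0.30 ± 0.20) and Batf3 (0.74 ± 0.36), a receptor and a transcription factor of cross-presenting dendritic cells, did not pass.

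Of 17 antigen presentation genes 11 rose and 6 did not pass (median 1.23, and 1.13 without the 4 libraries), against 17.3% of all genes tested called higher. The class II chain H2-Aa averaged 3966 ± 1585 in treated and 1498 ± 1306 in HBSS lungs (log2 1.76 ± 0.35), Cd74, the invariant chain, rose by 1.70 ± 0.38, and the peptide exchange subunit H2-DMa by 1.23 ± 0.21. B2m, the shared light chain of class I, had 0.41 ± 0.19 (limma adjusted p = 0.0979). Of the 17 genes 11 had an unadjusted p under 0.05 in the 16 libraries, and none was called.

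The 10 largest rises over 20 libraries, by the rule given under processing, were Spata18, Ms4a1, Ces1f, Ighd, Ces1g, Gzma, Ces1e, Cyp2a5, Acsm1 and Dnah5. Ces1e, Ces1f and Ces1g are neighbouring carboxylesterase genes, similar enough in sequence that reads may be shared between them, and Cyp2a5 and Acsm1 encode xenobiotic and fatty acid enzymes. Spata18, a gene of mitochondrial quality control, had the largest log2 fold change, 3.38 ± 0.59 (limma adjusted p = 0.00927). It was at 194, 302, 172, 39.2 and 374 in WT + T2 lungs, against 101, 15.3, 3.64, 32.5 and 3.03 in WT HBSS lungs. MT2 + T2 lungs had 20.6, 254, 27.3, 34.0 and 26.6, against 2.04, 7.53, 0.966, 5.71 and 3.34 in MT2 HBSS lungs. The reporter-negative replicate 2 was the MT2 + T2 lung that reached the tumour-free range of 126 to 328. Dnah5, a dynein heavy chain of motile cilia, rose by 2.99 ± 0.63, and Ighd, the constant region of immunoglobulin D, by 3.13 ± 0.60. Without the 4 libraries the log2 values of these 10 genes ran from 1.70 (Cyp2a5) to 2.84 (Ms4a1) and none was called. The call of Cyp2a5 was also lost without WT HBSS replicate 3 or replicate 5, while the other 9 held with any 1 library left out.

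The 10 largest falls were Nxf3, Fosl1, Rhox2g, Hmga2, Rhox5, Sh2d5, Lhx9, Rhox2h, Zic2 and Plac1, whose means in tumour-free lungs were 0.572 (Plac1) to 15.0 (Hmga2). Rhox5, Rhox2g and Rhox2h are homeobox genes of the reproductive cluster on the X chromosome, and the last pair are near-identical copies whose split of reads is uncertain. Fosl1 encodes a FOS-family transcription factor, Lhx9 and Zic2 are developmental transcription factors, and Plac1 is a placental gene. Rhox5 was at 874, 27.6, 24.1, 2335 and 16.7 in WT + T2 lungs, against 1363, 2876, 3509.6, 3236 and 4046 in WT HBSS lungs. Mutant treated lungs (MT2 + T2) had 2744, 48.2, 2669.5, 2762 and 2802, against 4176, 2662, 2398, 2848 and 3989 in MT2 HBSS lungs. Apart from replicate 2, the MT2 + T2 lungs thus lay within the MT2 HBSS range, and the 4 reporter-negative lungs were at 16.7 to 48.2, beside 3.79 to 32.2 in tumour-free lungs. Rhox5 fell by 2.95 on the log2 scale (limma adjusted p = 0.0275), with a log2 value of -0.50 without the 4 libraries. Over the 10 genes the log2 values were -3.15 (Nxf3) to -2.76 (Plac1), and -1.37 (Nxf3) to -0.16 (Rhox2h) without the 4 libraries, where none was called. With all but 1 library in the fit, the calls of Nxf3, Sh2d5 and Lhx9 held throughout, that of Fosl1 was lost without WT HBSS replicate 5, and those of Rhox2g, Hmga2, Rhox5, Rhox2h, Zic2 and Plac1 were each lost in turn without WT + T2 replicate 2, WT + T2 replicate 5, MT2 + T2 replicate 2 or WT HBSS replicate 5, and some also without other libraries.

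Of 14 tumour cell transcripts tested, 10 fell and 4 did not pass, against 11.2% of all genes tested that were called lower (median log2 -1.74, and -0.37 without the 4 libraries). The list was drawn up for this tumour with earlier results known. It holds Luc2, by which the 4 libraries were chosen, so its smaller median without them is tied to that choice. Members that fell include Igf2bp1 (-1.21), an RNA-binding protein gene of embryo and tumour, and the imprinted gene Peg10 (-1.65), while the growth factor genes Areg (-0.70) and Ereg (-0.83) and the keratin genes Krt8 (0.29) and Krt18 (-0.30), which lung epithelium also expresses, did not pass. Of 30 proliferation genes 8 fell, such as the mitotic kinase genes Plk1 (-1.65 ± 0.55) and Cdk1 (-1.77 ± 0.64), and 22 did not pass. The median of that list was -1.12 over 20 libraries and 0.0048 without the 4. Mki67 averaged 902 ± 727 in treated and 1884 ± 907 in HBSS lungs (SD, n = 10 each, log2 -1.30 ± 0.52, limma adjusted p = 0.0636). Of 18 hypoxia and glycolysis genes 7 fell, 1 rose and 10 did not pass (median -0.76, and -0.28 without the 4 libraries), with the glucose transporter gene Slc2a1 at -1.08 ± 0.37, the hypoxia marker Car9 at -1.01 ± 0.36 and the vessel growth factor gene Vegfa, which alveolar cells also make, at 1.46 ± 0.42.

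Genes of lung epithelium were higher as whole lists over 20 libraries. All 12 alveolar type 1 genes rose (median log2 1.54, and 0.87 without the 4 libraries), as did all 14 alveolar type 2 genes (1.52 and 1.08) and all 11 motile cilia genes tested (1.84 and 1.08), where 17.3% of all genes were called higher. Of 12 club and secretory genes 10 rose (2.25 and 1.43), and Scgb3a1 and Reg3g did not pass. Lamp3, a gene of surfactant storage bodies, averaged 3743 ± 2527 in treated and 1027 ± 894 in HBSS lungs (log2 2.08 ± 0.44), the surfactant gene Sftpc rose by 1.66 ± 0.50 and Foxj1, the regulator of cilia, by 2.27 ± 0.64. The summed alveolar type 2 level was 48428 to 401624 in treated lungs, 10882 to 162793 in HBSS lungs and 376278 to 439673 in tumour-free lungs. Among the treated, the 4 without reporter had 212756 to 401624 and the other 6 had 48428 to 239547. In the 16 libraries none of these genes was called.

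Of 20 endothelial genes 12 rose (median 1.32, and 0.57 without the 4 libraries), where 17.3% of all genes tested were called higher and 11.2% lower. The receptor gene Kdr had a log2 value of 1.87 ± 0.53 and the junction gene Cdh5 of 1.38 ± 0.45. Of 16 fibroblast and mural genes 9 rose (1.34 and 0.65), led by Tcf21 (2.44 ± 0.60), a factor of lung fibroblasts. Of 8 mesothelial genes 5 rose and 1 fell. Of 11 cardiac muscle genes limma called 0 (3 at an unadjusted p under 0.05), although all 11 log2 values were positive (median 1.30, and 0.053 without the 4 libraries). Of 7 erythroid genes limma called 0 (4 unadjusted), and of 6 skeletal muscle and 4 squamous epithelium genes 0 as well (0 unadjusted in each).

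Myeloid lists were mixed, beside 17.3% of all genes tested called higher and 11.2% lower. Calls in the monocyte, neutrophil and suppressive myeloid lists were below those shares. Of 12 alveolar macrophage genes 8 rose (median 1.75, and 1.03 without the 4 libraries), among them the lectin gene Siglecf (2.14 ± 0.53) and Itgax (0.93 ± 0.24). Of 20 monocyte and macrophage genes 2 rose, 1 fell and 17 did not pass (median -0.64, and -0.0076 without the 4 libraries). The lysozyme gene Lyz2 averaged 65099 ± 16936 in treated and 33743 ± 14959 in HBSS lungs (log2 1.05 ± 0.23), and Ccr2, the receptor that draws monocytes into tissue, rose by 0.85 ± 0.26 with 1.22 without the 4 libraries. The complement gene C1qc fell by 1.02. Of 11 neutrophil genes tested 1 fell, the decoy receptor Il1r2 (-1.18 ± 0.39), with a list median of -0.16 and of -0.059 without the 4 libraries. Of 16 suppressive myeloid genes 1 rose, Vegfa, which the alveolar type 1 list holds too, and the median was -0.17, with 0.21 without the 4 libraries.

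Of 21 cytokine and chemokine genes 7 fell, 2 rose and 12 did not pass, against 11.2% of all genes tested called lower and 17.3% higher. Their median log2 was -0.55 over 20 libraries and 0.21, of the opposite sign, without the 4. The monocyte attractant Ccl2 was at 697 ± 653 in treated and 1659 ± 1179.9 in HBSS lungs (log2 -2.31 ± 0.77), Csf3, which drives neutrophil production, fell by 2.05 and Cxcl1 by 2.00, while the lymphocyte attractant Ccl5 rose by 1.60 ± 0.42. In the 16 libraries these log2 values were -0.46, -1.05, -0.65 and 1.32, in the same order. Of 24 genes of the type I interferon response 2 rose, among them the RNA sensor Ifih1 (1.33 ± 0.34), and 22 did not pass (median 0.13, and 0.46 without the 4 libraries). Of 11 checkpoint genes the inhibitory receptor Btla rose (1.88 ± 0.39) and the ligand Cd276 fell by 1.37, while Cd274, which encodes PD-L1, had 0.23 ± 0.21 (limma adjusted p = 0.39). The checkpoint median was 0.12, and 0.35 without the 4 libraries. By share, the interferon and checkpoint lists had fewer calls than all genes tested (28.5%).

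Genes of matrix metalloproteinases, which TIMP2 blocks, were listed with ADAM and ADAMTS protease genes, inhibitor genes and Bsg, and members were called in both directions. Of 27 tested, 4 rose, 4 fell and 19 did not pass, a share of calls near that of all genes tested (28.5%), with a median log2 of 0.0014 and of 0.15 without the 4 libraries. Mmp14, the membrane protease that activates Mmp2 together with TIMP2, averaged 2863 ± 2259 in treated and 5732 ± 2075 in HBSS lungs (SD, n = 10 each, log2 -1.55 ± 0.44, limma adjusted p = 0.0213). Mmp2 itself averaged 481 ± 317 in treated and 199 ± 142 in HBSS lungs (1.18 ± 0.39). The disintegrin protease Adam8 (-0.99), Mmp19 (-0.76) and Mmp11 (-0.40) fell, and Mmp15 (1.90), Adamts5 (1.43) and the membrane inhibitor Reck (1.48) rose. Neither Timp1 (-0.80 ± 0.40, adjusted p = 0.129), Timp3 (1.48 ± 0.57, adjusted p = 0.0575) nor the gelatinase Mmp9 (-0.26 ± 0.26) passed. In the 16 libraries Mmp14 had -0.46 and Mmp2 0.58, and no member was called.

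Of 27 collagen and matrix genes 7 fell and 3 rose (median -0.35, and -0.058 without the 4 libraries), where 11.2% of all genes tested were called lower and 17.3% higher. Col3a1, the chain of a fibrillar collagen, averaged 25446 ± 20890.1 in treated and 57200.5 ± 24262 in HBSS lungs (log2 -1.76 ± 0.54), Thbs2 fell by 2.29 and fibronectin (Fn1) by 1.23, whereas Postn rose by 1.63 ± 0.46. Of 15 integrin and TIMP2 partner genes Itgb6 (1.27 ± 0.35) and the phosphatase Ptpn11 (0.51 ± 0.16) rose and the fibronectin receptor chain Itga5 fell by 0.94 (median of the list 0.34, and 0.13 without the 4 libraries). The chains Itga3 (0.45 ± 0.26) and Itgb1 (0.14 ± 0.11), which form the endothelial TIMP2 receptor, did not pass. The share of calls in this list was below that of all genes tested (28.5%). Of 16 epithelial to mesenchymal transition genes 6 fell, Vim (-0.83) among them, and 3 rose, the epithelial genes Cdh1 (1.91 ± 0.51) and Epcam (1.58 ± 0.50) and the smooth muscle actin gene Acta2 (1.11 ± 0.41), with a median of -0.10 and of -0.074 without the 4 libraries.

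Stress lists gave few calls and the clock list more, where 28.5% of all genes were called. Of 18 immediate early genes the nuclear receptor genes Nr4a1 (0.96 ± 0.35) and Nr4a3 (2.21 ± 0.60) rose, and of 18 heat shock and unfolded protein genes Herpud1 (0.84) and Chordc1 (0.48) did. In the list of 14 clock and cold-inducible genes 5 rose, such as Dbp (1.59 ± 0.51) and Per3 (1.25 ± 0.42), and 2 fell, Arntl (-1.15) and the cold-inducible gene Cirbp (-0.78). Arntl and its output gene Dbp peak at opposite times of day, and the hour of collection was not given in the labels used here. The part of that hour was not tested. None of the genes named here was called in the 16 libraries, where the median of the clock list was -0.033, against 0.45 over 20 libraries. The summed level of the clock list was 24824 to 28041 in the 4 treated lungs without reporter and 9791 to 21458 in the other 6. HBSS lungs had 10127.5 to 17808.5 and tumour-free lungs 15058 to 20429.

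**Figure D4:**
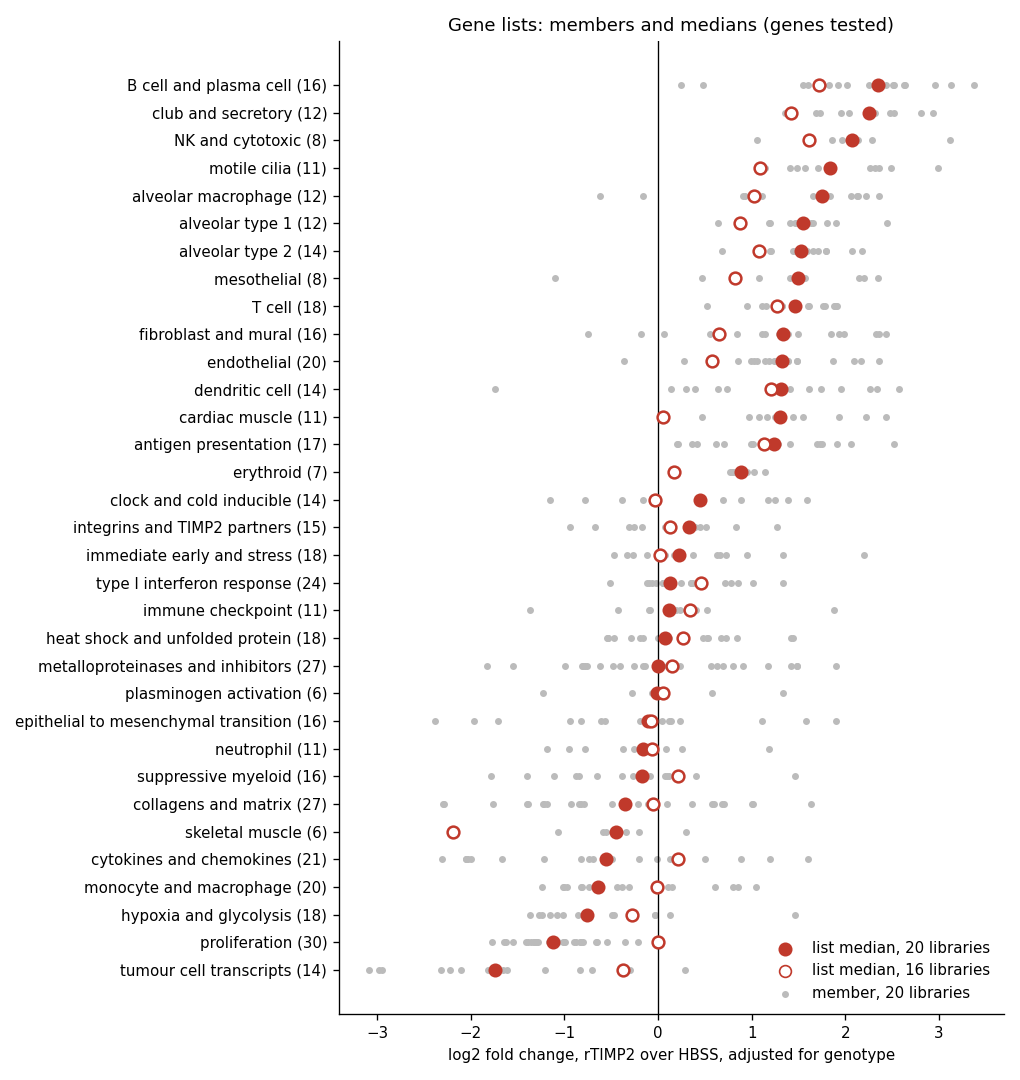
Log2 fold change of rTIMP2 over HBSS, adjusted for genotype, on the x axis, for gene lists down the page with the number of genes tested in brackets. Grey points are members over 20 libraries, filled red points list medians over 20 libraries and open red points medians over 16 libraries. The sex chromosome list and lists with few genes tested are not drawn. T cell, antigen presentation and dendritic cell medians move little between them (1.47 and 1.27 for T cells). B cell (2.35 and 1.72) and NK medians (2.07 and 1.61) move more, as do alveolar type 2 (1.52 and 1.08) and alveolar type 1 medians (1.54 and 0.87). Tumour cell (-1.74 and -0.37) and proliferation medians (-1.12 and 0.0048) approach 0. The libraries left out were chosen for lacking Luc2, a member of the tumour cell list, so the move of tumour medians is tied to that choice. No T cell gene was called in the 16 libraries, and a separation of lymphocyte values from tumour content was not tested.

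The rTIMP2 effect was also set side by side in MT2 and WT lungs, which share no library. Over the 16379 genes tested, the log2 values of WT and MT2 lungs had the same sign for 74.1%, and they correlated at r = 0.72 (Spearman rho = 0.68), a description across genes that share the libraries and are not independent. Of the 4673 called genes 4672 had the same sign in both, which the additive call itself favours. Their median absolute log2 fold change was 0.76 in MT2 and 1.27 in WT lungs, and 3755 were larger in WT. The WT + T2 group holds 3 of the reporter-negative lungs and the MT2 + T2 group 1, and the part of that imbalance in the difference was not tested. The interaction of genotype and rTIMP2 was called for 0 genes by limma (985 at an unadjusted p under 0.05, lowest adjusted p = 0.654), and for 0 without the trend and robust options.

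The smallest unadjusted interaction p-values belonged to Slc16a3, Arrdc2, Pilra, Cd300ld and Apln, and none passed adjustment (limma adjusted p = 0.654). Slc16a3, an exporter of lactate, was at 315, 355, 558, 421 and 241 in WT + T2 lungs, against 617, 864, 853, 526 and 737 in WT HBSS lungs. In MT2 + T2 lungs the values were 401, 335, 421, 438 and 559, against 196, 162, 361, 354 and 279 in MT2 HBSS lungs. A gene on the opposite strand, the kinase gene Csnk1d (mean 2759), overlaps it. Treated lungs of both genotypes covered a like range, whereas the HBSS lungs of the mutant were all below those of WT. The log2 values were 0.72 in MT2 and -0.96 in WT lungs (interaction unadjusted p = 0.00013). Apln, a ligand that guides vessel growth, had 1.08 in MT2 and -0.52 in WT lungs, with HBSS values of 157 to 408 in MT2 and 607 to 1027 in WT. The myeloid receptor genes Cd300ld (1.72 in MT2, -0.56 in WT) and Pilra (0.87 in MT2, -0.59 in WT) had the same order, and Arrdc2 had the reverse (-1.29 in MT2, 0.36 in WT). The same HBSS lungs enter each interaction, so a low or high HBSS group moves it as a treated group would.

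**Figure D5:**
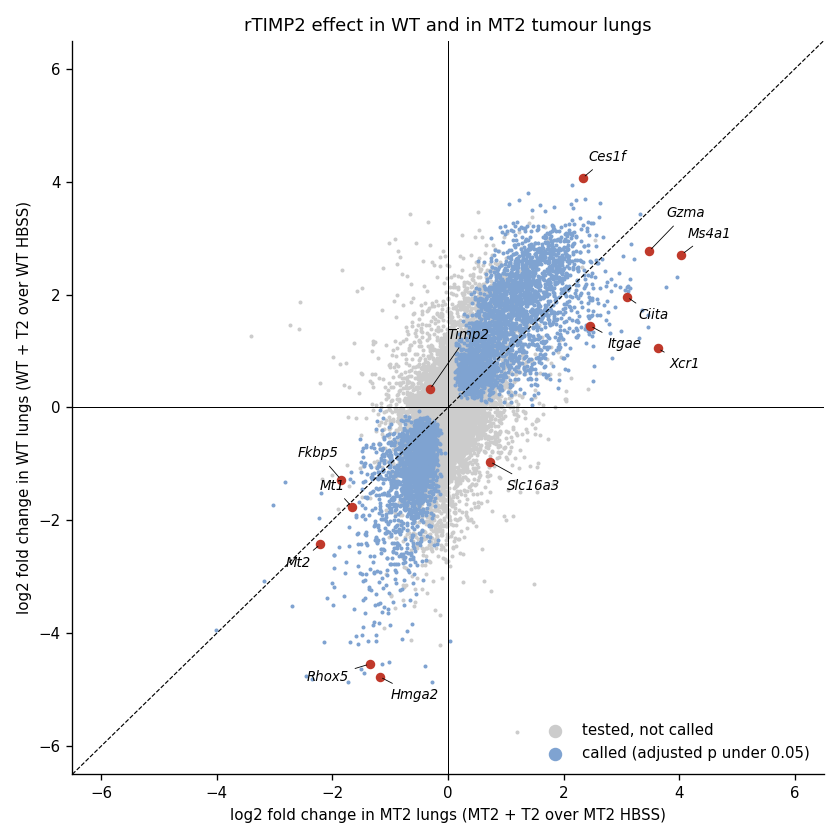
Log2 fold change of rTIMP2 over HBSS in MT2 lungs (x axis) and in WT lungs (y axis) for every gene tested, with blue points for genes called in the genotype-adjusted fit and grey points for the others. The dashed line marks equal values. Mt1 (-1.66 and -1.76) and Mt2 (-2.21 and -2.42) lie near it, Hmga2 and Rhox5 lie far on the WT side, and Xcr1 (3.63 and 1.05) and Ms4a1 on the MT2 side.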

How the data were processed

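RNA of lung pieces was sequenced from polyA-selected libraries, per the labels' protocols, and the submitters' processing notes name Partek, Bowtie2, STAR and DESeq2 with build mm10. For roles, versions, annotation release and strand setting: not given in the sources used here. The deposited table holds 1 signal value per gene and library, the authors' normalized counts. Low values lie in steps of about 1 read, and 78.9% to 84.5% of those up to 20 steps are whole multiples within 0.02, too few to recover reads, so no count model was run. Step sizes put depth at 10.7 to 17.1 M reads per library.

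Of 26940 genes, the 16379 that reached 10 in at least 10 of the 20 libraries were tested with limma 3.58.1 (R 4.3.3; trend and robust options) on log2(value + 1), with treatment and genotype as terms. Called means an adjusted p (Benjamini-Hochberg, across the 16379) under 0.05. Fold changes on this scale understate low genes. Within-genotype and interaction values came from a fit with 1 mean per group. Luc2, Hmga2 and Timp2 had exact two-sided permutation tests within genotype (63504 arrangements). Permutation tests planned for list sums were not used.

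Members and lists were chosen with earlier results of these data known. Named genes were the 10 largest rises and 10 largest falls among called genes whose higher group averaged at least 50, with 1 sign in both genotypes. Numbered gene models, pseudogenes and the sex chromosome genes Xist, Ddx3y, Eif2s3y, Kdm5d and Uty were left out of these rises and falls. The genes with the 5 smallest interaction p-values, at the same level of at least 50, were named too. In the lists, called members and examples with small p were named, and non-called members were added. Some called members are not reported here. Groups came from sample titles, and the labels do not say whether replicates shared a cage, litter or day of collection, so p-values measure the spread between these samples. The fit was checked on simulated data with independent normal noise for each gene and library. That setting lacks the split among the treated lungs seen here, so it does not check the fit for such a split. Alternatives covered pseudocount, filter, scaling, limma options, weights, model terms, the library set and single libraries. The Hmga2 covariate was chosen after seeing the data. Sequences are from RefSeq, which held windows for Mt1 and Mt2.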

Additional observations from a re-analysis of the deposited data

Results flagged for a closer look

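In 21 of 100 pairs of a named gene and a group of 5 lungs, 1 lung stood far from the other 4 by Dixon's gap test. The nominal rate of that test is about 1 in 20, for independent values of normal spread. These genes share the same lungs, were picked for large differences and were taken on the unlogged scale. The 21 are therefore a description and are not set against chance. MT2 + T2 replicate 2, which had almost no Luc2, accounts for 10 of them. In it Spata18 was at 254 (20.6 to 34.0 in the other 4 lungs), Ces1f at 189 (4.90 to 14.6), Ces1g at 194 (3.92 to 12.2) and Ces1e at 132 (4.86 to 20.5). Cyp2a5 was at 2601 (70.9 to 116), Acsm1 at 100.3 (3.92 to 26.4) and Dnah5 at 725 (29.4 to 71.6). Rhox2g was at 1.97 (359 to 479.7), Rhox5 at 48.2 (2669.5 to 2802) and Mt1 at 754 (1340.4 to 1570.4). For Mt1 this lung lies on the same side of MT2 HBSS lungs as the other 4.

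WT HBSS replicate 1 was high in Ms4a1 at 187 (6.05 to 49.2), Ces1f at 73.5 (0 to 21.0), Ces1g at 57.4 (1.01 to 12.0), Ces1e at 51.1 (0 to 14.7), Cyp2a5 at 1419.6 (13.3 to 353) and Dnah5 at 233 (9.08 to 48.2), and low in Rhox2g at 149 (387 to 421). MT2 HBSS replicate 5 had Ces1f at 15.0 (0 to 2.90), and MT2 HBSS replicate 4 had Ighd at 34.3 (1.67 to 10.2). WT + T2 replicate 4 had Nxf3 at 54.7 (1.15 to 11.2) and Rhox2h at 568 (0 to 161).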

How the results depend on the processing

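The count of 4673 genes (2834 higher, 1839 lower) moved by over 1.5 times under 5 alternatives. Library weights gave 7295 (3246 lower), all 30 intratracheal libraries 7578 (4257 higher, 3321 lower), the 16 libraries 3 (1 higher, 2 lower), MT2 lungs alone 0 (0 higher, 0 lower) and the Hmga2 covariate, chosen after seeing the data, 4 (1 higher, 3 lower). Leaving out 1 library gave 2233 to 6277 genes (1486 to 3535 higher, 747 to 2742 lower). The count within WT lungs (3923) was 8917 with weights, 7455 with 30 libraries, 0 with 16, 0 with the covariate, and 0 to 7608 with 1 library left out. The count within MT2 lungs (27) was 10 with a pseudocount of 10, 16 without a filter, 57 without trend and robust options, 206 with weights, 635 with 30 libraries, 1 with 16, 66 with the covariate, and 1 to 462 with 1 library left out. The causes were not tested. The replicate numbers do not pair the samples: correlations of same-numbered libraries ran from -0.65 to 0.77, 2 of 20 libraries correlated best with their own number, and a fit with the replicate number as a block called 3349 genes, 1 within WT and 3 within MT2. Without the 4 libraries the differences of Luc2 and Hmga2 were -0.24 and -0.49. With the covariate, Luc2 (0.028), Rhox2g (0.12) and Rhox2h (0.20) changed sign. Quantile normalization moved the median of all genes to -0.080 and called 48.4% of its genes higher, against 60.6% for the deposited scale. The interaction count was 0 under each of its alternatives. Genes that did not reach 10 in 10 libraries were not tested.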

Other observations

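Squamous epithelium and skeletal muscle transcripts were high in a few lungs of both treatments. The summed level of 8 squamous epithelium genes was 78084 and 231426 in WT + T2 replicates 2 and 3, 48276 and 21148 in WT HBSS replicates 1 and 4 and 1349 in MT2 HBSS replicate 4, against 18 to 625 in the other 15 tumour-bearing lungs. The sum of 9 skeletal muscle genes was 30857 and 215175 in the same WT + T2 lungs, 35694 and 10039 in the same WT HBSS lungs and 29193 in MT2 HBSS replicate 4. Tumour-free lungs had 51.4 to 551 for the squamous sum and 218 to 551 for the skeletal sum. The sum of 11 cardiac muscle genes differed in this, since tumour-free lungs themselves had 5516 to 13708. It was 8891 to 18859 in the 4 treated lungs without reporter and 10607 and 8303 in WT HBSS replicates 1 and 4. Of these lungs only WT + T2 replicate 3, at 18859, lay above the tumour-free range.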
